A study of Mus musculus with 15 samples.

Results

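The comparison of p27 knock-out with wild type mouse embryonic fibroblasts covered 8 of the 15 arrays of the series, chosen by the genotype in the labels: 4 arrays of p27 knock-out cells and 4 of wild type cells. Both genotypes carried the strain background given as C57B6. The cells came from embryos of 13.5 days, were at passage 3, and were harvested at high confluence after 24 h of serum starvation. The other 7 arrays, used below only to see whether the p27 difference recurred, held 4 of stathmin knock-out cells and 3 of cells lacking both p27 and stathmin, raised the same way. The knock-out samples are named p27_KO1, and arrays of 1 genotype are labelled as biological replicates, without the allele, the number of embryos behind an array or the sex being given. Each array carried the sample in the red dye (Cy5) against a reference pool of fibroblast RNA in the green dye (Cy3), with no dye swap, so a value is the log2 ratio of sample to pool and a difference is p27 knock-out minus wild type.

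p27, the product of Cdkn1b, binds cyclin and cyclin-dependent kinase complexes and slows the passage from G1 into S phase. It accumulates in contact-inhibited and serum-starved fibroblasts, where much of its control lies in protein turnover rather than in its RNA. It also has functions that do not need the kinases, among them binding to the GTPase RhoA and to stathmin, a protein that destabilises microtubules, and the title of the study points to such a function.

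All 4 arrays of a genotype lay on different slides, and each of the 4 slides held 1 array of either genotype, so every slide gave its own difference. Arrays of a genotype always took the same place on the slide, so the effects of place and of genotype cannot be told apart. Between 59.3 and 78.4% of spots had a red signal well above background, and all 19 fibroblast markers tested, among them Col1a1, Col3a1, Vim, Thy1 and Pdgfrb, were well above background on all 8 arrays. Wild type 3 and 4 correlated at 0.84 across genes, against 0.19 to 0.46 for the other wild type pairs, while pairs of p27 knock-out arrays ran from -0.22 to 0.12. p27 knock-out 2 correlated with the wild type arrays at -0.32, -0.16, -0.47 and -0.39. The labels state the dyes, and the direction was kept as they give it. Among the 8 arrays compared, p27 knock-out 2 also stood apart in genes of the sex chromosomes. Ddx3y read -7.24 and Eif2s3y -5.89 there, against -0.48 to 1.05 for both genes on the other 7 of these 8. Xist, which is made from the inactive X chromosome, read 1.91 on p27 knock-out 2 and 0.20 on wild type 1, and was below 0 on the other 6 arrays, down to -2.56. Of 9 genes of X and Y dosage, 1 read higher and 8 lower in the knock-out, with a median of -0.30. Their mean was -1.72 on p27 knock-out 2. Outside the 8 arrays it was as low on double knock-out 1 (-1.96) and on stathmin knock-out 1 and 2 (-2.01 and -1.78). The part of p27 knock-out 2 and wild type 1 was not tested as a cause, and results are given without p27 knock-out 2 where they move with it.

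The targeted gene was read by 3 Cdkn1b probes, and the deposited files do not say where they lie relative to the deleted sequence. The only one bright enough to test, which carries the symbol Cdkn1b through a cDNA clone rather than through the RefSeq transcript, read 0.93, -0.22, 0.08 and 0.08 on wild type arrays 1 to 4 and -0.15, -0.17, 0.05 and -1.10 on p27 knock-out arrays 1 to 4. The groups overlapped, and the difference of -0.56 (SE 0.37, 95% interval -1.35 to 0.23) did not pass (limma, adjusted p = 0.796). A second probe, printed as 10 spots per array and designed to the RefSeq transcript, was too near background to enter the test. It read 0.25, 0.22, 0.23 and 0.36 in wild type and -0.12, -0.10, -0.20 and -0.16 in the knock-out, so that all 4 knock-out arrays lay below all 4 wild type arrays. An exact permutation test of its mean difference of -0.41 gave p = 0.0286, two-sided, the smallest that 4 against 4 can give, and 0.0857 after Benjamini-Hochberg adjustment over the 3 probes. The probe was well above background on 2 of 4 wild type and 0 of 4 knock-out arrays. Its bound of 1.02-fold lower in the knock-out is too small to show a loss. On the arrays lacking both genes it read -0.13, -0.18 and -0.08, and on the stathmin knock-out arrays 0.53, 0.22, 0.07 and -0.13. The third probe, also dim, ran from -0.13 to -0.01 in wild type and from -0.33 to 0.36 in the knock-out, with overlapping groups. Stmn1, which is intact in both genotypes, read 0.71, 0.87, 0.80 and 0.64 in wild type and 0.69, 0.41, 1.49 and 1.18 in p27 knock-out on the probe that separates the stathmin knock-out arrays, with overlapping groups (exact permutation p = 0.486).

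**Figure D1:**
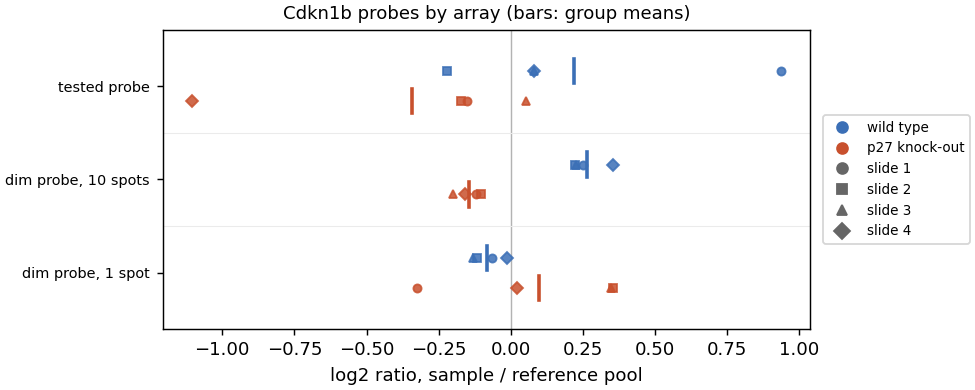
Log2 ratio of sample to reference pool for the 3 Cdkn1b probes; blue points are wild type arrays, orange points p27 knock-out arrays, the marker shape gives the slide and the short bars are group means. The groups separate only on the dim probe printed as 10 spots, between -0.20 and -0.10 in the knock-out and between 0.22 and 0.36 in wild type.

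No gene passed the threshold. Limma called 0 of 18681 genes (0%) at an adjusted p under 0.05, and the smallest adjusted p was 0.683, shared by 4 genes. The unadjusted p was under 0.05 for 1067 genes (5.71%), of which 482 (2.58%) read higher and 585 (3.13%) lower in the knock-out. With arrays centred on their median in place of loess, 1236 genes had an unadjusted p under 0.05 and 74.19% of them were higher, against 45.17% under loess. The count moved with single arrays: it was 2179 without p27 knock-out 1, 495 without p27 knock-out 2 and 415 without wild type 3. With slide as a block, limma also called 0 genes, and the unadjusted count was 1493 (7.99%). The groups of 4 arrays did not overlap for 185 genes higher (1.02%) and 221 lower (1.22%) of the 18096 genes with a value on all 8 arrays. All 4 slides gave a higher value in the knock-out for 1392 of them (7.69%) and a lower one for 1278 (7.06%).

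Most genes lay close together in the 2 genotypes. The median difference was 0.015 and the median size of a difference 0.17 on the log2 scale, 86.0% of genes were within 0.5, and for 13781 genes (73.8%) the 95% interval lay within 1 log2 unit of 0. Differences over 1 log2 unit were read for 595 genes, 369 higher and 226 lower, and over 2 units for 44 higher and 19 lower. The spread within the knock-out was the larger one: the median SD was 0.35 there and 0.23 in wild type. Of all genes, 71.0% had the larger SD in the knock-out. Wild type 3 and 4 correlated at 0.84 and p27 knock-out 2 stood apart, as given above. The part of these arrays in the 2 spreads was not tested. Slide by slide the difference did not repeat well. Across genes, its correlation between slides was 0.06 for slides 1 and 2, -0.22 for 1 and 3, -0.49 for 1 and 4, 0.37 for 2 and 3, 0.17 for 2 and 4, and 0.37 for 3 and 4, given as a description of arrays that share slides and the reference pool.

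The genes with the smallest p among those with a chromosome position, 12 in each direction, are described below by their values. They were ranked by this contrast, so their separation is no added support. Among those that read higher in the knock-out, Pbp2's neighbour Hebp1, a haem-binding protein gene, read -0.58, -0.52, -0.69 and -0.56 in wild type and 0.31, 0.77, -0.18 and 0.39 in the knock-out, a difference of 0.91 (SE 0.23, adjusted p = 0.794). The 4 wild type arrays lay close together and below every knock-out array. Ddb2, which encodes the subunit that recognises ultraviolet damage in DNA and is a target of p53, read -0.14, -0.07, -0.60 and -0.51 in wild type and 0.50, 0.86, 0.61 and 0.23 in the knock-out, a difference of 0.88 (SE 0.20). Apobec1, an RNA-editing cytidine deaminase, differed by 1.16 (SE 0.24): the wild type arrays ran from -0.88 to -0.40, p27 knock-out 1 read -0.17, and the other 3 knock-out arrays ran from 0.73 to 0.85. The complement component gene C2 differed by 1.34 (SE 0.35), with p27 knock-out 1 at -0.39 just above the highest wild type array at -0.44 and the other 3 between 0.71 and 1.33. Dock10, an exchange factor for small GTPases, differed by 1.25 (SE 0.34) and Dnmbp, an exchange factor for Cdc42, by 0.58 (SE 0.16), with 0.33 on its second probe. The second Apobec1 probe gave 0.77, that of C2 1.34.

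Metabolic enzymes were also among the 12. Alas1, the first enzyme of haem synthesis, differed by 0.62 (SE 0.17), and 0.66 on its second probe. Eno2, the neuronal form of the glycolytic enzyme enolase, differed by 0.95 (SE 0.26) and 0.94 on its second probe, with knock-out arrays between 0.02 and 0.59 and wild type arrays between -1.11 and -0.16. The membrane protein gene Tmem106a differed by 1.04 (SE 0.29), and 0.91 on its second probe. For Smg6, a nuclease of nonsense-mediated decay, the brightest probe gave 0.42 (SE 0.11) while its 5 other tested probes ran from -0.46 to 0.20, so its direction depended on the probe. H2-T10, one of the nonclassical histocompatibility genes, whose close copies can share signal, rested on 2 wild type arrays (-0.84 and -1.07) and 1 knock-out array (0.71), the others having been marked as outlier spots.

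Pbp2, which encodes a protein of the phosphatidylethanolamine-binding family and lies 0.39 Mb from Cdkn1b, had the largest of the 24 differences. It ran from 0.67 to 1.69 in wild type and read -2.63, -3.67, -1.98 and -2.15 in the knock-out, a difference of -3.82 (SE 0.67, 95% interval -5.28 to -2.37, adjusted p = 0.683). All 4 knock-out arrays were below 0 and all 4 wild type arrays above. Lce1i and Lce1h, cornified envelope genes of the epidermis, read alike on every array, as near-identical neighbours whose probes can share signal. Lce1i ran 0.42, -0.06, 1.37 and 0.84 in wild type and -0.89, -2.44, -1.82 and -1.46 in the knock-out, a difference of -2.30 (SE 0.42), and Lce1h differed by -2.23 (SE 0.42). Lce1e of the same cluster differed by -0.97 (SE 0.20). Krt7, a keratin of simple epithelia, read 1.10, 0.40, 1.06 and 1.07 in wild type and -0.39, -0.27, -1.52 and -0.63 in the knock-out, a difference of -1.61 (SE 0.31), and -1.27 on its second probe. Its wild type arrays other than wild type 2 ran from 1.06 to 1.10.

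Several of the lower genes are known for other tissues than fibroblasts. Gabra4, a subunit of the GABA receptor, read 0.25, 0.36, 0.58 and 0.38 in wild type and -0.53, -1.30, -0.62 and -0.59 in the knock-out, a difference of -1.15 (SE 0.23). Lrrtm2, a synaptic adhesion protein gene, differed by -1.23 (SE 0.30), Pde6h, a photoreceptor phosphodiesterase subunit, by -1.19 (SE 0.27), and Mak, a kinase of male germ cells and cilia, by -0.63 (SE 0.16). The second Pde6h probe gave -0.21. The sialyltransferase gene St3gal6 differed by -1.26 (SE 0.32) and the histone gene H2ac13, one of many near-identical H2A copies, by -0.99 (SE 0.24). Bmp8b, a bone morphogenetic protein gene, differed by -0.87 (SE 0.18), but was well above background on only 1 of 4 knock-out arrays and 3 of 4 wild type arrays. Gabra4, Lrrtm2, Pde6h and Lce1e were each well above background on 3 of 4 knock-out arrays. The mean red signal of Gabra4 in the knock-out was 7.14 in log2, against 7.03 in wild type for the dim Cdkn1b probe of 10 spots. Leaving aside H2-T10, all of the 24 had groups that did not overlap. Their adjusted p was 0.683 for Pbp2, Lce1i, Lce1h and Krt7 and 0.794 for the other 20.

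**Figure D2:**
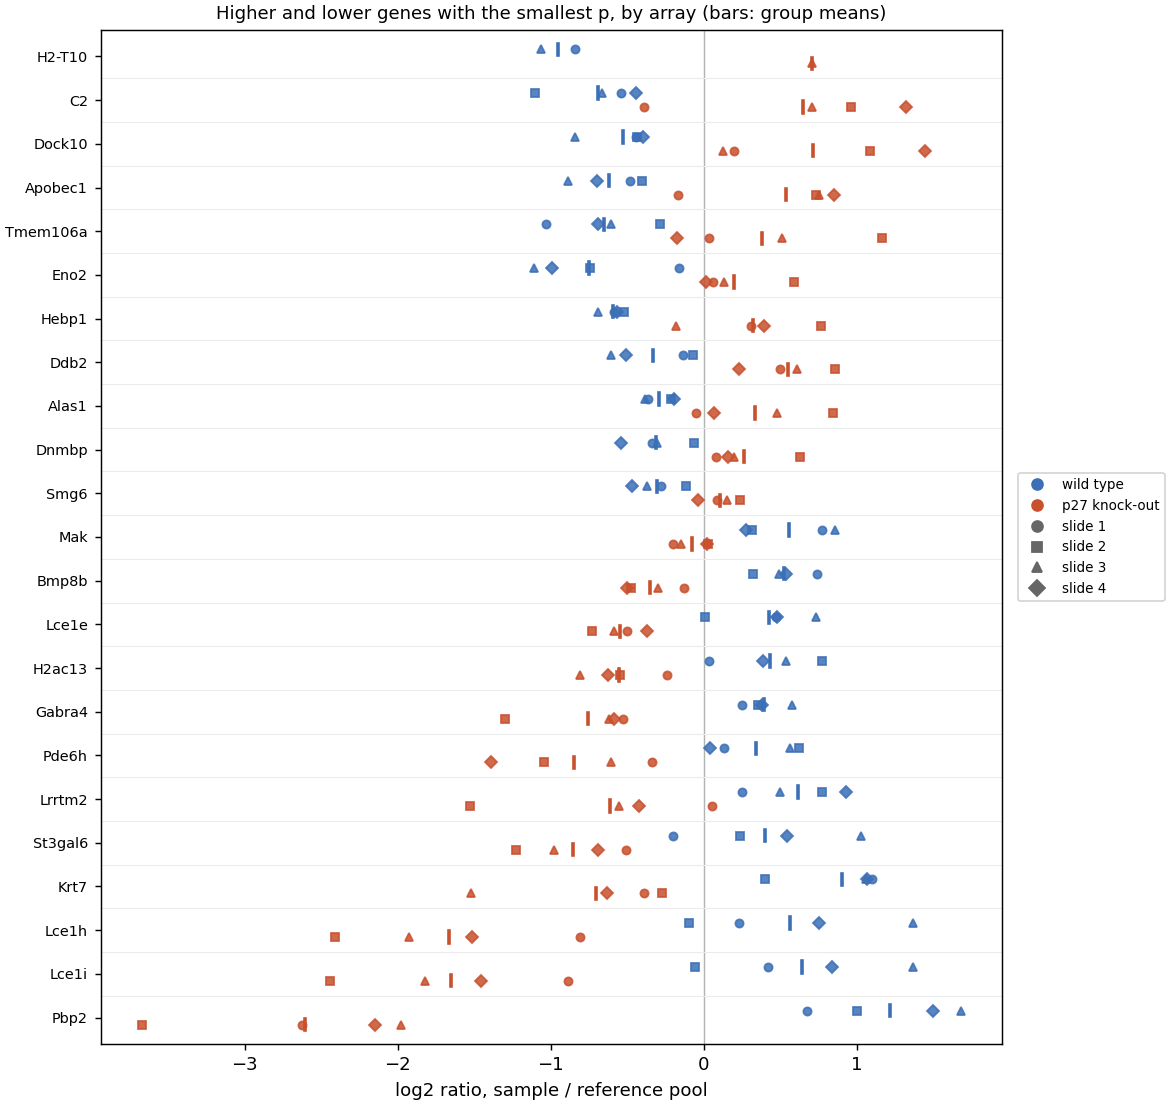
Log2 ratio of sample to reference pool on each array for reported genes among the 12 higher and 12 lower ones with the smallest p; colours give the genotype, marker shapes the slide, and short bars the group means. Pbp2 has the widest gap between groups, and p27 knock-out 1 (orange circle) is the knock-out array nearest to wild type for Apobec1, C2, Lce1h and Lce1i.

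Genes of G1 cyclins, their kinases and regulators leaned lower in the knock-out, and none passed the adjusted threshold. Of 19 tested, 3 read higher and 16 lower in the knock-out, with a median of -0.34 beside 0.015 over all genes. Of the 19, 3 had an unadjusted p under 0.05, all lower, against 3.13% of all genes on that side. Cdk6, a partner of the D-type cyclins, read -0.08, 0.35, 0.06 and 0.05 in wild type and -0.19, -0.79, -0.21 and -0.74 in the knock-out, a difference of -0.58 (SE 0.23, adjusted p = 0.794), with groups that did not overlap. Ccnd1, cyclin D1, differed by -0.47 (SE 0.21) and Fbxw7, the substrate receptor of the ligase that degrades cyclin E, by -0.68 (SE 0.30). The kinase that p27 holds back in S phase entry, Cdk2, read 1.83, -0.16, 0.50 and -0.61 in wild type and -0.23, -0.50, 0.00 and -0.12 in the knock-out, and its partners Ccne1 and Ccne2 differed by -0.34 and -0.52; none had an unadjusted p under 0.05. Skp2, which marks p27 for degradation, differed by -0.40 and its cofactor Cks1b by -0.41. The lean to lower values was strongest on p27 knock-out 2, whose list mean was -0.53, while the other 3 knock-out arrays had means from -0.11 to -0.05 and the wild type arrays from 0.03 to 0.18. Without that array the median was -0.14, with 0 of 19 at an unadjusted p under 0.05; the lower count was also 0 without wild type 2 and 1 without wild type 3 or p27 knock-out 4, and 2 without wild type 1 or 4.

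The other inhibitors of cyclin-dependent kinases did not move as a group. Of 8 tested, counting Cdkn1b, 5 read higher and 3 lower, 0 had an unadjusted p under 0.05, and the median was 0.24. Cdkn1a, which encodes p21, the closest relative of p27 with Cdkn1c, read -0.57, -0.37, -0.92 and -0.93 in wild type and 0.02, -0.76, -0.15 and -0.63 in the knock-out, a difference of 0.32 (SE 0.27). Cdkn1c, the gene of p57, ran from -1.48 to 1.55 over the knock-out arrays and from -0.68 to -0.08 over wild type. Cdkn2d differed by 0.55 (SE 0.45), with wild type arrays spread from -1.50 to 0.63. Of 19 E2F factors and pocket proteins, which carry the signal from the kinases to the genes of S phase, 7 read higher and 12 lower with a median of -0.24. Lin9 (-0.58) and Tfdp2 (-0.48) on the lower side and Lin52 (0.45) on the higher side had an unadjusted p under 0.05.

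Genes of replication and mitosis, the readout of cycling cells, divided the knock-out arrays among themselves rather than the genotypes. Mean values of 55 mitosis genes were 0.58, 0.14, -0.04 and -0.01 on wild type arrays 1 to 4 and -0.44, -0.78, 0.76 and 0.52 on knock-out arrays 1 to 4. On slide 1 only 1 of 55 mitosis genes read higher in the knock-out and on slide 2 also 1 of 55, while on slide 3 it was 55 of 55 and on slide 4 53 of 55; over all genes the share higher was 52.38, 49.6, 51.28 and 52.04% on the 4 slides. The knock-out arrays thus lay on both sides of wild type: p27 knock-out 3 was above all 4 wild type arrays for 38 of 55 genes and p27 knock-out 2 below all of them for 51 of 55. DNA replication genes ran the same way, with means of 0.29, 0.09, -0.02 and -0.03 in wild type and -0.29, -0.58, 0.29 and 0.33 in the knock-out. In the fit, 11 mitosis genes read higher and 44 lower (median -0.12), 13 replication genes higher and 30 lower (median -0.11), and 0 of either list had an unadjusted p under 0.05. Without p27 knock-out 2 the mitosis median turned to 0.16 and that of replication to 0.05, and without wild type 1 or p27 knock-out 1 the mitosis genes divided into 28 higher and 27 lower, or 29 and 26. The centromeric histone gene Cenpa, with 1.54, -0.14, 0.38 and -0.37 in wild type and -0.74, -1.27, 0.60 and -0.21 in the knock-out, gave -0.75 (SE 0.46).

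Genes induced by interferon made the broadest one-sided lean. All 48 tested members of the list read higher in the knock-out, against 52.8% of all genes, with a median of 1.62 and a range of 0.29 to 3.41; 16 of 48 had an unadjusted p under 0.05, against 2.58% of all genes on that side, and 0 passed the adjusted threshold. Mean values of the list were -1.43, -1.56, -1.67 and -1.70 in wild type, within 0.3 of each other, and -1.63, 1.05, 1.55 and -0.84 in the knock-out. p27 knock-out 1 lay inside the wild type range, and p27 knock-out 2, 3 and 4 were above all 4 wild type arrays for 48, 47 and 36 of the 48 genes, where the shares over all genes were 32.95, 23.57 and 24.4%. Leaving out 1 array at a time kept all 48 above 0 with medians from 1.14 to 2.06, but the count at an unadjusted p under 0.05 ran from 0 (without p27 knock-out 2) to 41 (without p27 knock-out 1). It was also 2 without p27 knock-out 3, 26 without p27 knock-out 4 and 10, 6, 2 and 3 without wild type 1, 2, 3 and 4, and 3 with slide as a block. The groups did not overlap for 7 of the 48, all higher, against 1.02% of all genes.

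Promoters of these 7 are shown to let the response element be seen beside the values. The RefSeq table holds 6 of them (GRCm38.p6, 250 bases before to 50 after the start), and capitals mark matches, on either strand, to the letters GAAA, any 2 bases and GAAA again, as in the interferon-stimulated response element; overlapping matches were counted separately. Bst2, which tethers budding virus particles (chr8:71537423-71537722, minus strand), Isg15, a ubiquitin-like protein (chr4:156200769-156201068, minus strand), and Oas1a, a synthetase of 2-5A (chr5:120907476-120907775, minus strand), hold matches. Irf7, a transcription factor of the interferon response (chr7:141266375-141266674, minus strand), and Lgals3bp, a secreted glycoprotein gene (chr11:118401910-118402209, minus strand), hold none in this window, nor does Ifi35. A match was held by 20 of 36 list members with a RefSeq promoter (55.6%), against 455 of 12105 tested genes (3.76%) and 1131 of 32851 promoters in all (3.44%). A match is a description of the letters, not a site shown to be used. Variants of the element with other letters or spacing were not searched, so a window without a match may still hold one.
Bst2: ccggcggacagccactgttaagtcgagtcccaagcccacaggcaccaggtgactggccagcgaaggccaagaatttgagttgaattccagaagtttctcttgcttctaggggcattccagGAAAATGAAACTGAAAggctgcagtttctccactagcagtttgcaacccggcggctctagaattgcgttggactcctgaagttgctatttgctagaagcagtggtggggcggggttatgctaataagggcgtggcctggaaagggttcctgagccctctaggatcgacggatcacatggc
Isg15: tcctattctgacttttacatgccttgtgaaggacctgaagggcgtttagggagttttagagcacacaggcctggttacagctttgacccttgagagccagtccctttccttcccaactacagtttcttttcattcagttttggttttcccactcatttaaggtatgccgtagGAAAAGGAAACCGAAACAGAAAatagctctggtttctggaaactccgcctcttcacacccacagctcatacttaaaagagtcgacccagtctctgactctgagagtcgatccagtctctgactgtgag
Oas1a: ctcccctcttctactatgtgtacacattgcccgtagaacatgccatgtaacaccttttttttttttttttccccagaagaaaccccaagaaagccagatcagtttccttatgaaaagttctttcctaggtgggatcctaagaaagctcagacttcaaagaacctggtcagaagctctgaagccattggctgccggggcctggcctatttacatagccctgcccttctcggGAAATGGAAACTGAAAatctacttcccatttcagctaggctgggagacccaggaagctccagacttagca
Irf7: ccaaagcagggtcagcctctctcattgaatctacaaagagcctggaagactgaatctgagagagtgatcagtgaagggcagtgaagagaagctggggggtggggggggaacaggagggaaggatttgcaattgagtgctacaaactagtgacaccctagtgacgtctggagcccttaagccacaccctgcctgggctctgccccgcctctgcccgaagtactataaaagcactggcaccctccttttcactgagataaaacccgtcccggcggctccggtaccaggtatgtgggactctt
Lgals3bp: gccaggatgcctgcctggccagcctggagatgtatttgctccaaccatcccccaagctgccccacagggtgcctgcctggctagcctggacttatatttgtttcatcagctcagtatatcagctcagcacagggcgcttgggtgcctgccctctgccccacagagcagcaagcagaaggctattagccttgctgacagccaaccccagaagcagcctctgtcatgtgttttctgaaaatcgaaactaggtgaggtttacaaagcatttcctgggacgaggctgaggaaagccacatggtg

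Bst2 read -1.44, -1.83, -1.99 and -1.48 in wild type and -0.62, 1.06, 0.88 and -0.92 in the knock-out, a difference of 1.78 (SE 0.66, adjusted p = 0.794). Lgals3bp differed by 1.78 (SE 0.66), with -1.46, -1.62, -1.95 and -1.83 against -0.94, 1.58, 0.83 and -1.18. In both genes p27 knock-out 2 and 3 were above 0 and p27 knock-out 1 and 4 below it, above all wild type arrays. Isg15 read -2.06, -1.88, -1.89 and -1.88 in wild type and -1.59, 0.45, 1.85 and -1.10 in the knock-out, Irf7 -1.63, -1.79, -1.76 and -1.79 against -1.61, 1.12, 1.74 and -1.09, and Oas1a -1.70, -1.25, -1.27 and -1.38 against -1.19, 0.90, 1.73 and -1.10. Ifitm3, a membrane protein that hinders virus entry, ran from -0.70 to 0.23 in wild type and read 0.78, 2.40, 1.26 and -0.01 in the knock-out, a difference of 1.44 (SE 0.56); 2 of its knock-out spots were saturated, so those levels are not measured exactly. The largest difference of the list was that of the GTPase gene Iigp1, at 3.41, with wild type arrays from -4.02 to -3.12 and knock-out arrays at -3.87, 2.50, 2.20 and -1.79. The list mean was also above 0 on stathmin knock-out 4 (1.30), the only such array that carries p27. Double knock-out 1, which lacks p27, read 0.38. The other 5 arrays of those genotypes ran from -1.69 to -0.16.

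Antigen presentation by class I molecules followed the same arrays. All 16 tested members read higher in the knock-out, against 52.8% of all genes, with a median of 0.91. Of the 16, 6 had an unadjusted p under 0.05, against 2.58% of all genes on that side. The array means were -0.78, -0.51, -0.78 and -0.83 in wild type and -0.42, 1.40, 0.80 and -0.69 in the knock-out. Psmb9, an immunoproteasome subunit, ran from -1.54 to -1.07 in wild type and from -0.82 to 2.06 in the knock-out, highest on p27 knock-out 2 and 3, a difference of 1.81 (SE 0.58). Its neighbour Tap1, the peptide transporter, differed by 1.34 (SE 0.47) and the subunit gene Psmb8 by 2.04 (SE 0.74), with groups that did not overlap. Psmb9 and Tap1 are read in opposite directions from 1 stretch on chromosome 17, and their promoters in RefSeq share 275 of 300 bases. The Psmb9 strand (chr17:34187281-34187580, minus strand) is printed to show this shared control region, in which those letters have no match, while 5 of the 15 list members with a RefSeq promoter (33.3%) hold one.
Psmb9: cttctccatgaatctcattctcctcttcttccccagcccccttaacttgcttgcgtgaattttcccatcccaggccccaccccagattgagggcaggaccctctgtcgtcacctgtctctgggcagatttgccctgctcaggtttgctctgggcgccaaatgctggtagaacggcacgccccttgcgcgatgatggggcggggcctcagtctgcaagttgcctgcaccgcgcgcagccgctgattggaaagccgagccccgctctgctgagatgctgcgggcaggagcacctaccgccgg
Without p27 knock-out 2 the list median was 0.67 with 2 of 16 at an unadjusted p under 0.05. That count was also 2 without p27 knock-out 3, 3 without wild type 3 or 4, 11 without p27 knock-out 4 and 12 without p27 knock-out 1. Of 21 genes that carry the interferon and pattern-recognition signal, all read higher with a median of 0.52. An unadjusted p under 0.05 was read for 5 of the 21, against 2.58% of all genes on that side. The count was 1 without p27 knock-out 2 or wild type 3 and 3 without wild type 4. Among the 21 was the receptor chain gene Ifnar1 (0.32, SE 0.12, wild type -0.27 to -0.01, knock-out 0.01 to 0.40). The adaptor gene Myd88 (0.56, SE 0.20) and the kinase gene Jak2 (0.63, SE 0.27) also belonged to it.

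Inflammatory and blood cell genes also read higher on average, with single arrays far apart. Of 36 chemokine and NF-kB genes, 31 read higher with a median of 0.89, but the knock-out means were -0.96, 1.64, -0.04 and -2.29 around wild type means of -1.59 to -0.99, and without p27 knock-out 2 the list stood at 18 higher and 18 lower. Il33, an alarmin, read -0.59, -1.01, -1.24 and -1.02 in wild type and -0.10, 2.74, -0.35 and 0.49 in the knock-out, a difference of 1.66 (SE 0.58). Rel, a subunit of NF-kB, differed by -0.57 (SE 0.20) and was well above background on 3 of 4 wild type and 0 of 4 knock-out arrays, at least 1.39-fold lower. Of 23 macrophage and blood markers, 22 read higher with a median of 0.90, and 0 had an unadjusted p under 0.05. Their means ran from -1.64 to -0.41 in wild type and were -0.20, 1.72, -2.44 and 0.29 in the knock-out, so that the array with the most interferon signal, p27 knock-out 3, had the least macrophage signal. Cd68, a lysosomal glycoprotein of macrophages, read -0.13, 1.66, -1.70 and 0.92 in the knock-out and -1.60 to -0.49 in wild type; Cd14 gave 1.31 (SE 0.70) and the integrin gene Itgb2 1.06 (SE 0.74). Without p27 knock-out 3 the median was 1.73 and 13 had an unadjusted p under 0.05, and without p27 knock-out 2 it was 0.25 with 0. Of the 23 markers, 21 had a red signal well above background on all 8 arrays. Whether that signal came from blood cells was not tested. In RNA of whole cultures, fewer cells of a type and less RNA per cell cannot be told apart, and the part of other cell types in the interferon and chemokine values was not tested.

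**Figure D3:**
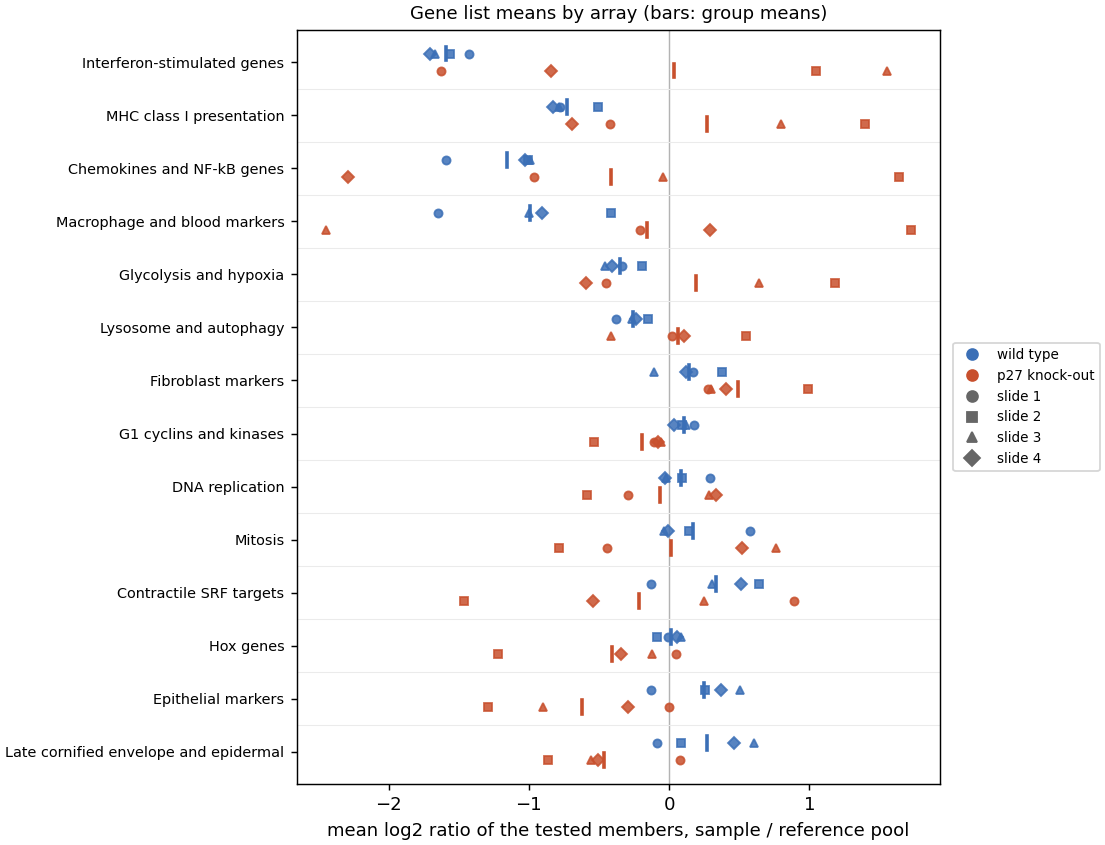
Mean log2 ratio of sample to reference pool over the tested members of 14 gene lists on each array; colours give the genotype, marker shapes the slide, and short bars the group means. Wild type arrays lie close together for the interferon-stimulated genes (-1.70 to -1.43) while the knock-out arrays spread from -1.63 to 1.55, and the mitosis means of the knock-out lie on both sides of wild type.

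Most energy and lysosome genes read higher in the knock-out, unevenly over its arrays. Of 34 glycolysis and hypoxia genes, 32 read higher with a median of 0.47 (29 and 0.19 without p27 knock-out 2); the knock-out means were -0.45, 1.18, 0.64 and -0.59 and the wild type means -0.46 to -0.19, and on slide 1 only 10 of 33 and on slide 4 only 7 of 33 read higher. Pfkfb3, a regulator of glycolytic flux, differed by 1.29 (SE 0.66) and Ndrg1, a hypoxia target, by 0.61 (SE 0.37). Of 30 lysosome and autophagy genes, 25 read higher with a median of 0.37. Npc2, a sterol carrier of the lysosome, ran from -0.40 to -0.06 in wild type and read highest on p27 knock-out 2, a difference of 0.86 (SE 0.38) with groups that did not overlap, and Fuca1, a fucosidase, differed by 0.46 (SE 0.17). Lysosome genes leaned higher on slides 1, 2 and 4 (21, 24 and 23 of 26) and not on slide 3 (10 of 26). Of the 30, 3 had an unadjusted p under 0.05, all higher, against 2.58% of all genes on that side. The count was 9 with slide as a block and 0 without p27 knock-out 2. It was 1 without wild type 3, 6 without wild type 2 and 11 without p27 knock-out 3. Cholesterol synthesis, 25 genes, gave 6 higher and 19 lower with a median of -0.24, and p27 knock-out 4 (mean 0.65) stood opposite to p27 knock-out 3 (mean -0.68); without p27 knock-out 4 all 25 read lower, 5 of them at an unadjusted p under 0.05.

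Markers of the fibroblast itself showed no common shift, with 10 of 19 higher, 9 lower and a median of 0.00. Pdgfrb, the receptor of platelet-derived growth factor, read -0.17, -0.10, -0.47 and -0.28 in wild type and 0.54, 0.17, 0.39 and 0.36 in the knock-out, a difference of 0.62 (SE 0.20) with groups that did not overlap. Vim, vimentin, read 1.55 to 1.99 in wild type and 0.90 to 1.78 in the knock-out, a difference of -0.53 (SE 0.21). The matrix proteoglycan gene Dcn read -3.12, -1.66, -2.78 and -2.34 in wild type and -2.43, 5.54, 0.20 and -0.60 in the knock-out, so that its difference of 3.15 (SE 1.34) rested mainly on p27 knock-out 2; 1 knock-out spot was saturated for Dcn and for Lum, and 2 wild type spots and 1 knock-out spot for Vim. Lum, of the same family, read 5.06 on that array against -1.67 to -0.95 on the other knock-out arrays. Of 24 collagen genes, 10 read higher and 14 lower (median -0.10), with Col6a2 at 0.37 (SE 0.20, groups not overlapping) and Col7a1 at -1.18 (SE 0.55). Contractile targets of serum response factor, 24 genes, gave 3 higher and 21 lower with a median of -0.51, but means of 0.89, -1.46, 0.25 and -0.54 in the knock-out and -0.03 for the median without p27 knock-out 2; without p27 knock-out 1, 8 of 24 had an unadjusted p under 0.05. Tagln, transgelin, gave -1.41 (SE 0.78), with wild type 1 left out as an outlier spot.

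Hox genes, which keep the body position a fibroblast came from, gave 6 higher and 30 lower of 36 with a median of -0.36. p27 knock-out 2 had the lowest mean of -1.22, the other knock-out arrays 0.05, -0.12 and -0.34, and wild type -0.09 to 0.08. Hoxb8 read 0.34 to 0.69 in wild type and 0.95, -3.22, -0.97 and -0.82 in the knock-out, a difference of -1.54 (SE 0.67), and Hoxc5 differed by -0.78 (SE 0.34) with groups that did not overlap. Without p27 knock-out 2 the median was -0.15, and without p27 knock-out 1 it was -0.54, with 13 of 36 at an unadjusted p under 0.05; the count was 0 without p27 knock-out 2, wild type 2 or wild type 3 and 1 without wild type 4 or p27 knock-out 4. The labels do not say which part of the embryo the cells came from.

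Epithelial markers leaned lower. Of 11 tested, 10 read lower with a median of -0.98. Of the 11, 5 had an unadjusted p under 0.05, all lower, against 3.13% of all genes on that side. The array means were -0.13, 0.26, 0.50 and 0.37 in wild type and 0.00, -1.29, -0.90 and -0.30 in the knock-out. The mean of p27 knock-out 1 thus lay inside the wild type range. Beside Krt7, Krt18, another keratin of simple epithelia, read 0.14 to 1.10 in wild type and 0.65, -3.03, -2.21 and -0.10 in the knock-out, and the desmosome gene Dsp read -0.17, 1.26, 0.90 and 0.83 against -0.06, -1.29, -0.39 and -0.30, a difference of -1.21 (SE 0.42). Krt19 differed by -0.80 (SE 0.28). Over all leave-one-out fits 9 or 10 of the 11 stayed lower, with medians from -1.36 to -0.70 and 3 (without p27 knock-out 2 or wild type 4) to 7 at an unadjusted p under 0.05. With no filter on dim probes the list held 18 markers, 14 of them lower, and the median was -0.22. Of 18 cornified envelope and epidermal genes 14 read lower, with a median of -0.16. Of the 18, 6 had an unadjusted p under 0.05, all lower, against 3.13% of all genes on that side. Among the 6 were Lce1i and Lce1h, whose probes can share signal. Beyond the Lce1 genes named above, Lce1f read -1.36, -0.60, 1.97 and 1.42 in wild type and -0.06, -2.75, -2.60 and -2.63 in the knock-out. Loricrin, Lor, read -0.46 to 1.24 in wild type and -0.23, -2.87, -0.69 and -0.69 in the knock-out. Keratins of the basal and upper epidermis gave differences of 0.03 for Krt14, -0.07 for Krt5, 0.04 for Krt1 and -0.15 for Krt10.

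Markers of other tissues that an embryo culture could hold gave mixed values. Of 10 endothelial markers 6 read higher (median 0.07) and of 18 neuronal and glial markers 4 (median -0.40). Of those 18, 3 had an unadjusted p under 0.05, all lower, against 3.13% of all genes on that side. Of 19 skeletal muscle markers 4 read higher (median -0.21) and of 16 cartilage and bone markers 9 (median 0.08). Of 13 adipocyte markers 10 did (median 0.28). The slow troponin gene Tnnt1 read -0.67 to -0.06 in wild type and -0.02 to 0.84 in the knock-out, a difference of 0.69 (SE 0.23), and the osteoblast factor gene Runx2 differed by -0.66 (SE 0.26). Elavl4, a neuronal RNA-binding protein gene, differed by -0.88 (SE 0.33) with groups that did not overlap. Emcn, endomucin of blood vessels, ran from -0.25 to 1.23 in wild type and read 0.77, -2.83, -2.22 and 0.30 in the knock-out. Lpl, the lipase of adipocytes and macrophages, differed by 1.35 (SE 0.63). The adipocyte hormone gene Adipoq was well above background on 0 of 4 wild type and 1 of 4 knock-out arrays. Its bound of 1.05-fold higher averages in the undetected knock-out arrays and does not establish a difference between the groups.

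Genes of pathways tied to the functions of p27 outside the cell cycle followed no common direction. Arhgdib, which encodes a GDP dissociation inhibitor, read 0.25, -0.13, 0.03 and -0.19 in wild type and -1.23, -0.28, -0.63 and -1.35 in the knock-out, a difference of -0.86 (SE 0.30), Rock1, a kinase downstream of RhoA, differed by -0.54 (SE 0.22) and the exchange factor gene Arhgef11 by 0.31 (SE 0.12). Of 36 microtubule genes, stathmins included, 22 read higher and 14 lower (median 0.05). Map1b, which binds and stabilises microtubules, read 1.05, 0.26, 0.33 and 0.24 in wild type and -0.22, -0.81, -0.02 and -0.25 in the knock-out, a difference of -0.79 (SE 0.23), and the plus-end protein gene Mapre1 differed by -0.42 (SE 0.20). The groups did not overlap for either, nor for Stmn4, a neuronal stathmin (-0.96, SE 0.53, named after its values were seen), which makes 3 of 36 lower and 0 higher against 1.22% and 1.02% of all genes. The motor gene Kif5b differed by -0.50 (SE 0.24). Of 36 Ras and ERK pathway genes 14 read higher and 22 lower (median -0.11). Nras read -0.07, -0.03, 0.29 and 0.25 in wild type and -0.17, -0.31, -0.55 and -0.09 in the knock-out, a difference of -0.39 (SE 0.16) with groups that did not overlap, Spry4, a feedback inhibitor, differed by -1.78 (SE 0.64), and Map2k1, which encodes MEK1, by 0.53 (SE 0.25).

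Immediate early genes, the first to answer serum, again differed by array: wild type means were -1.14, -0.30, 0.39 and 0.64 and knock-out means 0.66, 0.13, -0.49 and -1.29. The slide differences therefore ran from 1.80 on slide 1 to -1.93 on slide 4, and the fit gave 11 of 29 higher with a median of -0.08, which turned to 0.13, 0.12 and 0.19 without wild type 3, wild type 4 and p27 knock-out 4; Egr3 gave -1.52 (SE 1.11), Nr4a2 -0.86 (SE 0.55) and Myc -0.43 (SE 0.31). Of 27 FoxO targets and quiescence genes 21 read higher (median 0.21), with Bcl2l11, a death-promoting target, at 0.36 (SE 0.18) and the muscle ligase gene Trim63 at -0.52 (SE 0.23). Of 29 p53 targets 14 read higher (median -0.04), with Ddb2 the only one at an unadjusted p under 0.05; Fas gave 1.09 (SE 0.62) and Plk3 -0.79 (SE 0.40). Growth factor pathways were as mixed: 12 of 34 TGF-beta and BMP genes read higher (median -0.04, Tgfbi 1.05, SE 0.48), 13 of 30 Wnt genes (median -0.09, Sfrp1 1.20, SE 0.49; Wnt7b -0.30, SE 0.13) and 8 of 17 genes of the insulin-like growth factor axis (median -0.02). Igfbp3, which binds those factors, read -1.52 to -0.85 in wild type and -0.29, 2.48, -0.91 and 1.22 in the knock-out, a difference of 1.77 (SE 0.66). Of 32 matrix proteases and inhibitors 21 read higher (median 0.21), with the plasminogen activator gene Plat at -0.50 (SE 0.21), and of 26 NRF2 targets 15 (median 0.08), with Gsta3 at 1.20 (SE 0.53) and Gstp1 at 0.41 (SE 0.19, without wild type 2, an outlier spot).

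Neighbours of Cdkn1b on chromosome 6 were examined because cells of a knock-out line can carry sequence of the donor strain around the targeted gene; the labels do not state such sequence, and its part was not tested. Within 5 Mb of the start of Cdkn1b, the unadjusted p was under 0.05 for 12 of 51 tested genes (23.5%), of which 10 read lower and 2 higher, against 5.71% of all genes and 6.0% of the 800 tested genes of the chromosome. The share was 5 of 31 (16.1%) within 2 Mb, 17 of 121 (14.0%) within 10 Mb and 24 of 253 (9.49%) within 20 Mb. Over the 23 alternative settings the count within 5 Mb ran from 9 to 18, and it was 10 without p27 knock-out 2. Nearest was Lockd, a noncoding RNA made just downstream of Cdkn1b, with 0.89, 0.32, 0.16 and 0.31 in wild type and -0.35, -0.73, 0.12 and -0.23 in the knock-out, a difference of -0.72 (SE 0.28). The groups did not overlap, though p27 knock-out 3 lay only 0.04 below the lowest wild type array. Hebp1 at 0.22 Mb and Pbp2 at 0.39 Mb followed, in opposite directions. At 1.99 to 2.56 Mb lay Erp27, a chaperone of the endoplasmic reticulum (-1.29, SE 0.43), Arhgdib, Pde6h and the actin regulator gene Eps8 (0.14 to 1.08 in wild type, -1.39 to 0.35 in the knock-out), all lower. Ybx3, a cold-shock domain protein gene on the other side, differed by -0.87 (SE 0.24) and the glutathione transferase gene Mgst1 by 1.75 (SE 0.71). The natural killer receptor genes Klra1 and Klra7, at -2.33 and -2.22, are close copies that can share signal and read -0.55 and -0.54 on wild type 1 against 0.90 to 1.28 on the other wild type arrays. The histone gene H4f16, also 1 of many copies, differed by -0.69 (SE 0.23). Of the 51 tested genes within 5 Mb, 8 had groups that did not overlap, against 1.02% higher and 1.22% lower among all genes. Among the 12 with an unadjusted p under 0.05 it was 7, 1 higher and 6 lower. Those 12 were picked by this same contrast, so their separation is no added support.

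**Figure D4:**
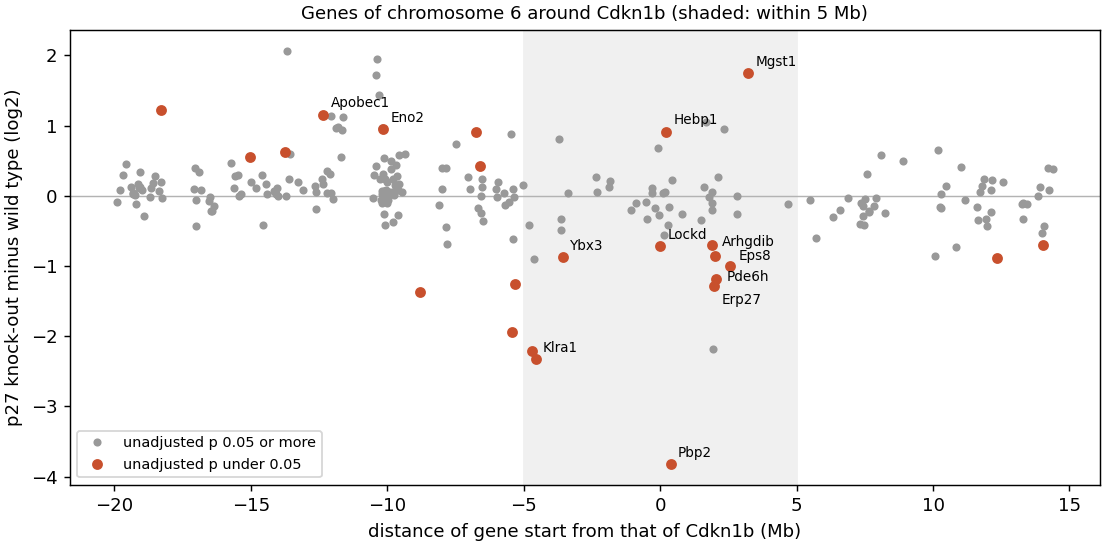
Difference between p27 knock-out and wild type (log2) against the distance of each tested chromosome 6 gene from Cdkn1b in Mb; orange points have an unadjusted p under 0.05 and the shaded band spans 5 Mb to either side. In the band 12 of 51 genes are orange, with Pbp2 lowest at -3.82.

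A second pair of groups asks the same question where stathmin is also absent: the double knock-out against the stathmin knock-out. It shares no array with the comparison above, though it shares the slides and the reference pool. Across 18681 genes the 2 differences had the same sign for 40.8% and correlated at -0.22, and among the 1067 genes with an unadjusted p under 0.05 here, 326 (30.6%) had the same sign there. Higher genes kept their sign in 155 of 482 cases and lower genes in 171 of 585. In the double knock-out against the stathmin knock-out 728 genes (3.9%) had an unadjusted p under 0.05, 90 of them also here, and 18 of those 90 had the same sign. Without p27 knock-out 2 the share of same signs among the genes at an unadjusted p under 0.05 was 41.4%, and over the alternative settings it ran from 27.5 to 45.9%. A test of the difference between the 2 backgrounds called 0 genes (0%), and 1374 (7.36%) had an unadjusted p under 0.05.

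Several of the named genes read opposite ways in the 2 backgrounds. Gabra4, at -1.15 without p27 alone, read 1.15 (SE 0.25) in the double against the stathmin knock-out, an interaction of 2.30 (SE 0.34, adjusted p = 0.243). Lce1i read 1.40 (SE 0.45) there, an interaction of 3.70 (SE 0.62, adjusted p = 0.315), and Lce1h 1.32 (SE 0.45). Gabra4 passed the threshold of the interaction with array weights, as the 1 gene called, and Hoxa5, named after its values were seen, was the 1 gene called without p27 knock-out 1. Other named genes leaned the same way in both. Pbp2 read -1.34 (SE 0.73) and Dock10 0.87 (SE 0.36) in the second background, both with overlapping groups. For Pbp2 the stathmin knock-out arrays, which carry p27, read 0.24, -0.99, 1.38 and -2.40. The double knock-out arrays read -2.58, -1.95 and -0.80. H2-T10 rested in that background on 1 array of the double knock-out and is not compared. Of the 18 genes at an unadjusted p under 0.05 in both with the same sign, chosen after their values were seen, Omd, a keratan sulphate proteoglycan of bone, gave -1.71 (SE 0.60) and -2.18 (SE 0.65), with 1.43, 0.49, 0.13 and 0.17 in wild type and -0.66, -2.27, -1.66 and -0.02 in p27 knock-out. Fabp7, a fatty acid-binding protein gene, gave 1.19 (SE 0.50) and 1.73 (SE 0.54), Cotl1, a coactosin-like actin-binding protein gene, 0.56 (SE 0.23) and 0.67 (SE 0.25), and Fndc3c1, on the X chromosome, -1.24 (SE 0.39) and -1.12 (SE 0.42).

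List medians in the second background were compared with those above. Interferon-stimulated genes had a median of -0.42 there, with 10 of 48 higher, and class I presentation -0.29, with 1 of 16 higher. Mitosis genes stood at 0.68 with 54 of 55 higher and replication genes at 0.48 with 42 of 43 higher, where the first comparison gave -0.12 and -0.11. Macrophage and blood markers were on the higher side in both, with 22 of 23 and medians of 0.90 and 0.93. Epithelial markers had a median of -0.06 in the second background against -0.98. Of the 12 genes near Cdkn1b, 8 had the same sign in both and 0 had an unadjusted p under 0.05 in the second.

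**Figure D5:**
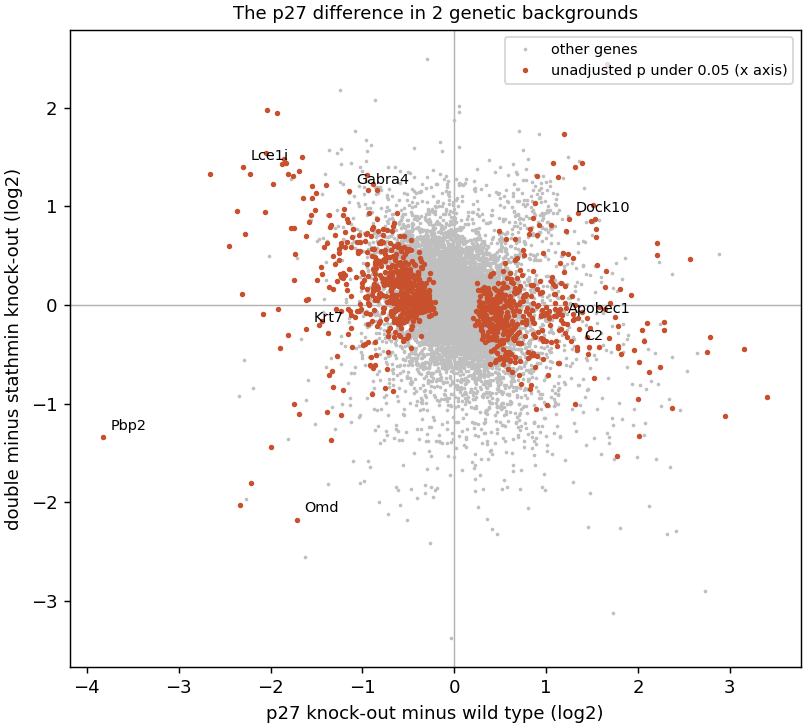
Difference between p27 knock-out and wild type (x axis, log2) against that between double and stathmin knock-out (y axis, log2) for each tested gene; orange points have an unadjusted p under 0.05 on the x axis. Of the 1067 orange genes 326 share a sign in both, among them Pbp2, Omd and Dock10, while Lce1i and Gabra4 lie below 0 on the x axis and above 0 on the y axis.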

How the data were processed

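The 15 samples were hybridised to Agilent 2-colour arrays of the mouse genome, and 8 were compared here. Per the labels' protocols, RNA was amplified by amino-allyl labelling. Per the file headers, Feature Extraction 9.1.3.1 wrote the scanner files and subtracted no background; their deposited spot and background signals are intensities, and their deposited ratio is a log10 of red over green. The authors' deposited value table holds log2 ratios of sample over reference with unstated normalization, and served as an alternative; its columns correlated with the scanner ratio at 0.962 to 0.993 (slope 0.919 to 0.979 in log2), had means of 0 and medians from 0 to 0.0489, so scale and direction are known and the centring is close to 0.

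In limma 3.58.1 under R 4.3.3, 43379 spots (41174 probes) were corrected by normexp with an offset of 50 and normalised within arrays by loess; the 0.233 to 0.862% of spots marked as outliers were left out. Median red signals ran from 252 to 440 units, and 0.0945 to 0.265% of spots were saturated. A probe was tested where at least 3 arrays of 1 genotype had a red signal well above background (27700 probes, 18710 gene names, 18681 with a value in this contrast), and the brightest stood for its gene. Of the tested probes 18206 were named through an accession in RefSeq, 4017 through a symbol, 1906 through an older symbol, and 3571 kept the file's name. All 15 arrays were fitted with 1 mean per genotype (11 residual degrees of freedom), two-sided, with Benjamini-Hochberg adjustment over all genes at 0.05. Precision was limited by the number of arrays, with a median 95% interval of 0.48 to either side. Nothing says that arrays came from separate embryos, so p-values measure the spread between these samples. At-least folds set the bright group's mean against the dim group's limit of detection.

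Some named members and 1 list are not reported here. The named genes were, by rule, every probe of Cdkn1b and Stmn1, and the 12 higher and 12 lower genes with the smallest p. That ranking left out Xist, the Y chromosome and genes without a chromosome position, among them all that kept the file's name. The rule also took the 3 members of each of 36 lists with the smallest p. Other members of a list were named after their values were seen. Members, lists and rules were chosen with earlier results of these data known. Replicate numbers equal slides for these 2 genotypes; same-numbered arrays had residual correlations of -0.28, 0.36, 0.11 and -0.03, so the numbers were not taken to pair them, and slide was a block only in an alternative. Alternatives also covered background, normalization, filter, probe choice, array weights, variance model, arrays fitted and leaving out each array.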

Additional observations from a re-analysis of the deposited data

Results flagged for a closer look

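Among 130 groups of 4 arrays (the named genes, the target probes and the list means, in either genotype), 12 held an array whose gap to the nearest other array exceeded Dixon's 95% critical value for 4 samples, where chance gives about 1 in 20. In wild type, Dock10 read -0.84 on wild type 3 against -0.45 to -0.40 on the others, and Krt7 read 0.40 on wild type 2 against 1.06 to 1.10. The mean of class I presentation was -0.51 on wild type 2 against -0.83 to -0.78. Wild type 1 stood low in the means of chemokine and NF-kB genes (-1.59 against -1.03 to -0.99), matrix proteases (-0.76 against -0.37 to -0.29) and endothelial markers (-0.23 against 0.07 to 0.11).

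In p27 knock-out, Apobec1 read -0.17 on p27 knock-out 1 against 0.73 to 0.85. The other 5 concerned p27 knock-out 2: Gabra4 read -1.30 against -0.62 to -0.53, and the means were -0.53 for G1 cyclins and kinases (others -0.11 to -0.05), -0.72 for neuronal and glial markers (others -0.28 to -0.20), 0.76 for adipocyte markers (others -0.27 to -0.17) and -1.72 for genes of X and Y dosage (others -0.28 to 0.01).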

How the results depend on the processing

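Under all 23 alternative settings limma called 0 genes between p27 knock-out and wild type, and 23 of the 24 named genes kept their direction in each; the exception was Smg6, at -0.062 with the mean of its probes. None of the 24 passed in any setting (lowest adjusted p 0.15, for Pbp2). The count at an unadjusted p under 0.05 was 2355 with array weights, 628 with wild type 3 and 4 averaged, 525 without wild type 1 and p27 knock-out 2, and 415 to 2179 when 1 array was left out. The interaction called 1 gene with array weights and 0 to 1 when 1 array was left out, 1 only without p27 knock-out 1. With slide as the replicate block, 0 genes were called and 1493 had an unadjusted p under 0.05; the block changed no call. The tested Cdkn1b probe ran from -0.72 to -0.31 with adjusted p from 0.546 to 0.9995. Of 36 lists, 20 kept the sign of their median in every setting; loess followed by scaling of the average signals gave the same counts as loess alone. The settings for the count near Cdkn1b and for the share of same signs were added after seeing the data. Dim probes, such as those of Cdkn1b, Bmp8b, Gabra4 and Rel, and 4 arrays a group limit what can be seen.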
